A study of Homo sapiens with 8 samples.

Results

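The ligands of the bone morphogenetic protein (BMP), growth differentiation factor (GDF) and activin families and their secreted antagonists were followed on promoter arrays of SMAD3. They were chosen by name from a list of 37 genes, and every probe annotated to one of these names was taken. The arrays held probes for 36 of the 37 genes, since GDF1 had none, out of 17133 annotated genes. These 36 genes carried 1173 of 474411 probes. They comprised 10 BMP ligands (346 probes), 10 GDF ligands (294 probes), 5 activin and inhibin subunits (168 probes), NODAL, LEFTY1, LEFTY2 and AMH (92 probes) and 7 antagonists (273 probes).

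Chromatin immunoprecipitation on microarrays was carried out in A549, a single established cell line from a human lung adenocarcinoma that serves as a model of alveolar epithelium. Cells were serum-starved and either given no TGFβ1 (basal level) or treated with 2 ng/ml of it. The labels give a treatment of at most 2 h, while another passage of the study gives a shorter time. Cy5 marked DNA of the SMAD3 IP and Cy3 DNA of a mock IP, and the labels name the mock antibody as anti-FLAG while the protocol names control IgG. Each condition had 2 replicates, each hybridised to 2 slides with different probes, which made 8 arrays. The sample titles number the replicates without saying whether they are biological, and the text of the study speaks of more array replicates. All DNA had been amplified by ligation-mediated PCR.

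BMPs, GDFs, activins and nodal are secreted dimers that signal through paired type I and type II serine/threonine kinase receptors. BMPs and part of the GDFs lead to phosphorylation of SMAD1, SMAD5 and SMAD9, whereas activins, nodal and TGFβ lead to phosphorylation of SMAD2 and SMAD3. Antagonists such as noggin, chordin, gremlin and follistatin bind the ligands outside the cell, and several of them are induced by the pathways they restrain.

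The level of a probe was the log2 of its SMAD3 IP signal divided by its mock IP signal, with the median of its array set to 0. A positive value therefore means more SMAD3 IP over mock IP than at the median probe. The level of a gene was the mean over its probes between 2000 bp upstream and 800 bp downstream of the annotated transcription start. Signal was low. Per array, 38.7% to 51.5% of all probes were well above background in both channels. Of the 1166 member probes that were not marked as outliers, 421 were well above background in both channels on the arrays of all 4 replicates, and these are called measured probes here. They made up 36.11% of the member probes, against 34.02% of all probes. BMP5, BMP10, GDF3 and GDF8 (an older name of the myostatin gene) had no measured probe in the window, CER1 and INHBC had 1, and GDF15 and INHBA had 2. The gene levels of these 8 members rest mostly on probes that were not measured, which need not be dim on every array. Probes not well above background in either channel of any replicate made up 9 of 16 window probes at BMP5, 8 of 13 at BMP10 and 11 of 16 at GDF8. They were 6 of 15 at CER1, 5 of 16 at INHBA, 1 of 6 at GDF15, 0 of 6 at GDF3 and 0 of 7 at INHBC. BMP8A and BMP8B, and LEFTY1 and LEFTY2, are near-identical copies, so that some of their probes may not tell them apart. The gene levels did differ within each pair. From the basal to the stimulated condition they changed by 0.12 and -1.56 at BMP8A and BMP8B, and by 0.05 and -1.15 at LEFTY1 and LEFTY2. Probes of GDF9, GDF11, INHA, CHRD and FSTL3 also lie near the start of a neighbouring gene.

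The first question was at which of these promoters the SMAD3 IP signal over mock IP differed between the stimulated and the basal condition. By limma with Benjamini-Hochberg adjustment, 21 of the 36 members changed, compared with 47.8% of all 16299 genes tested. The ratio rose at 11 members, compared with 20.3% of all genes, and fell at 10, compared with 27.5%. It rose at BMP5, BMP7, GDF2, GDF6, GDF7, INHBA, INHBB, INHBC, INHBE, GREM1 and CER1, and fell at BMP4, BMP6, BMP8B, BMP15, GDF3, GDF10, GDF11, LEFTY2, NOG and FSTL1. The median change was 0.05 over the members and -0.06 over all genes. The conditions did not overlap at 29 members, compared with 74.8% of all genes. Both stimulated replicates lay above both basal replicates at 16 of these, compared with 32.6% of all genes, and below them at 13, compared with 42.2%. Replicates of a condition correlated with r of 0.947 and 0.95 across genes, whereas conditions correlated with a mean of 0.263, although genes are not independent replicates. The precision of all values is limited by having 2 replicates per condition. The p-values rest on the spread between these replicates. Since the replicates may not be separate cultures, that spread may leave out the variation between treatments of cells. With the normexp background correction 3 of these 21 calls were kept (GDF6, GDF7 and LEFTY2), and with the median of the probes in place of the mean 4 were kept (GDF2, GDF7, GREM1 and FSTL1), while all annotated probes kept 11 and the probes within 500 bp of the start 12. Leaving out a replicate leaves 1 in a condition. Calls gained or lost in such a fit therefore say little about a single member or probe, and the change itself is the value to read.

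**Figure D1:**
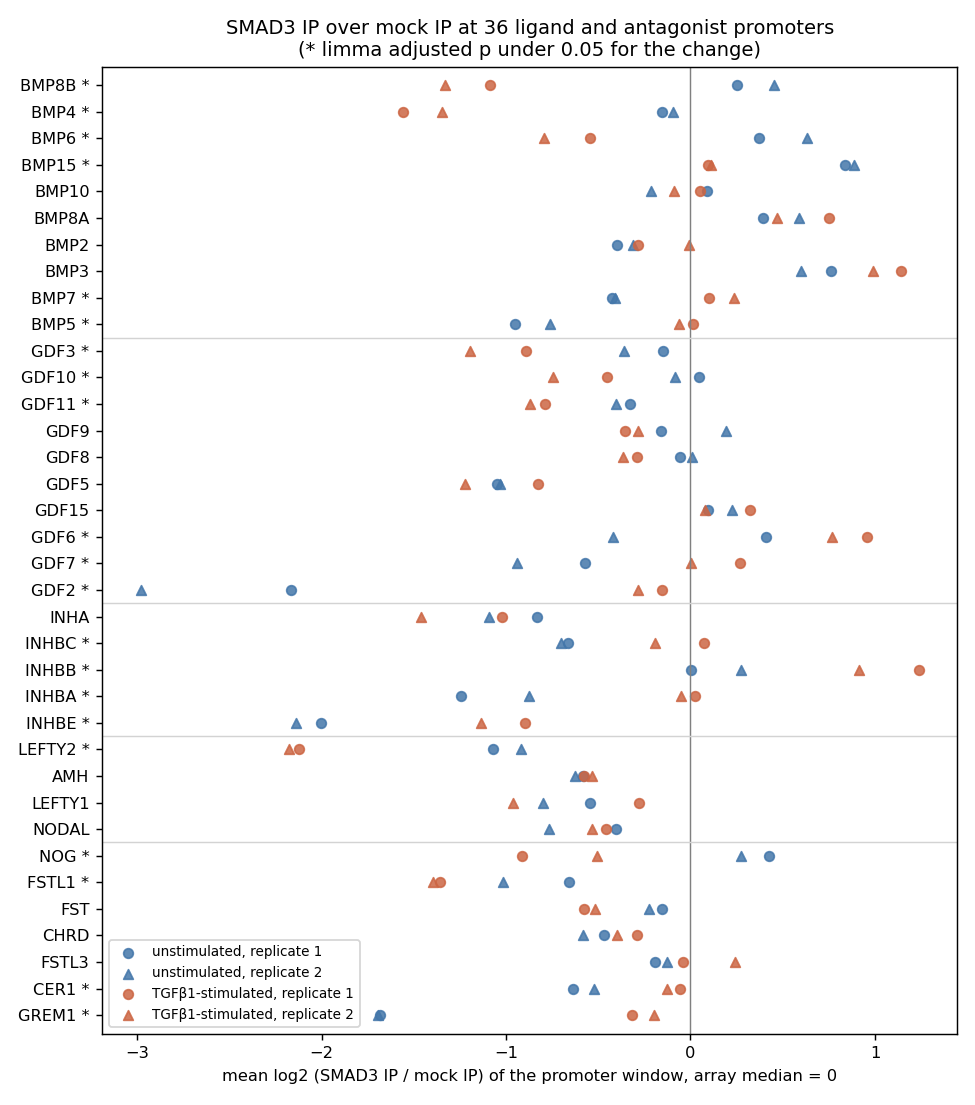
Mean log2 SMAD3 IP/mock IP ratio over the promoter window (x axis, array median at 0) for the 36 members (y axis), with 1 point per replicate and the roles separated by lines in the order BMP ligands, GDF ligands, activin and inhibin subunits, NODAL with LEFTY1, LEFTY2 and AMH, and antagonists. Asterisks mark the 21 members that changed, and the widest gaps are at GDF2, BMP8B, GREM1 and BMP4.

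The promoters of the 2 changed members with the largest fall and of the 2 with the largest rise among those with an entry in the RefSeq table (GRCh38.p14) are shown, because their composition differs widely. Each line gives the 250 bases before the most upstream RefSeq start of the gene, which may differ from the start that the arrays used. Capitals mark the letters CAGAC or, on the other strand, GTCTG, the core of the SMAD-binding element, and GGCGCC, a GC-rich motif of SMAD proteins that reads the same on both strands.
BMP8B (chr1:39788866-39789115, minus strand): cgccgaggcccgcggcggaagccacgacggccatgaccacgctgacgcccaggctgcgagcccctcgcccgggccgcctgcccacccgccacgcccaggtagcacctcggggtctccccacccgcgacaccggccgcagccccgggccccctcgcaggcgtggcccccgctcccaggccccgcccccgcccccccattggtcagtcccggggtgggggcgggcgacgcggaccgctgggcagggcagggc
BMP4 (chr14:53955051-53955300, minus strand): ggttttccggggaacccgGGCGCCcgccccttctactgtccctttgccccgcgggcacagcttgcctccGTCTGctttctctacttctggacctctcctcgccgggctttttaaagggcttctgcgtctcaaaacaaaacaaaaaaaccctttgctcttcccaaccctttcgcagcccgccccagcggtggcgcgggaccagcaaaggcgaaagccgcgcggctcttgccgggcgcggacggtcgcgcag
GREM1 (chr15:32717754-32718003, plus strand): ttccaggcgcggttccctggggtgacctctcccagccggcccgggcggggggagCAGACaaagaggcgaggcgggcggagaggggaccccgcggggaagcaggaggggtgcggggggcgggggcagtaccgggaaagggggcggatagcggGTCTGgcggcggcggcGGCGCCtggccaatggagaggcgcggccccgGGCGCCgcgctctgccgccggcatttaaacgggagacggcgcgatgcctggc
GDF2 (chr10:47322204-47322453, plus strand): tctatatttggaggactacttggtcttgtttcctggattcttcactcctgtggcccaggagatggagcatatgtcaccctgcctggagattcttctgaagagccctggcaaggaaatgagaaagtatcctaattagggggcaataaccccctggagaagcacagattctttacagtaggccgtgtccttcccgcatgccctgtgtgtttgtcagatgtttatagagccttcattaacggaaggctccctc
The BMP8B promoter had a GC content of 81.6% and held neither motif. The GDF2 promoter held neither motif either, at a GC content of 48.8%. The GREM1 promoter (76.8% GC) held 2 CAGAC and 2 GGCGCC matches, and the BMP4 promoter (63.6% GC) 1 of each. Of 33 RefSeq promoters found for 27 members, 15 (45.5%) held CAGAC on either strand, compared with 38.0% of all 35116 promoters of this length. GGCGCC was in 10 of them (30.3%), compared with 16.4% of all promoters. GDF9, BMP4 and GREM1 each entered with more than 1 start, and most of their promoters held CAGAC. The member shares are therefore not shares of genes, and they were not tested. A match is a description of the letters and not a binding site.

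Among the BMP ligands, the ratio fell at 4 of 10 genes, against 27.5% of all genes, and rose at 2, against 20.3%, and the median change was 0.08. BMP8B (chromosome 1), a ligand known from germ cells and brown fat, fell most. Its basal replicates had log2 ratios of 0.25 and 0.45, and its stimulated replicates had -1.09 and -1.33. The conditions did not overlap, and the change was -1.56 (SE 0.15, adjusted p = 8.95e-05 by limma), while the probes within 500 bp of the start alone gave -0.37, which was not called. The 6 probes of its window included 1, 663 bp upstream of the start, whose ratio was 0.25 and 1.78 at the basal level and -6.98 and -6.92 after stimulation. At this probe the mock IP signal went from 638 and 647 to 47910 and 55486 intensity units, and the SMAD3 IP signal from 895 and 3109 to 501 and 708. The large ratio change of BMP8B thus came with a switch in the mock IP signal at a single probe. The call of this probe ended without stimulated replicate 1 (change -7.94) or replicate 2 (change -8.00).

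BMP4 (chromosome 14), a ligand with roles in lung branching, had log2 ratios of -0.15 and -0.09 at the basal level. After stimulation they were -1.56 and -1.35. The conditions were well apart, and BMP4 fell by 1.33 on the log2 scale (SE 0.14, adjusted p = 0.000142 by limma). Within 500 bp of the start the change was -0.60 and was not called. Of its 9 measured probes, 4 fell. The probe 1556 bp upstream had basal ratios of -0.13 and -0.68 and stimulated ratios of -6.61 and -6.19 (adjusted p = 0.00367 by limma). The array annotation mixes 2 starts of BMP4, so that these distances are not all counted from the same start.

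BMP6 (chromosome 6), a ligand that controls hepcidin in the liver, had log2 ratios of 0.37 and 0.63 at the basal level and -0.54 and -0.80 after stimulation. The basal replicates were above the array median and the stimulated ones below it, a change of -1.17 (SE 0.16, adjusted p = 0.000534 by limma). With the median of the probes in place of the mean, BMP6 changed by -0.05 and was not called. BMP15 (chromosome X), an oocyte ligand, had the highest basal level of the BMP ligands, with ratios of 0.84 and 0.89, and fell to 0.09 and 0.11. Its change was -0.76 (SE 0.13, adjusted p = 0.00187 by limma), and it was -0.34 and not called over measured probes only, -0.19 with all annotated probes and -0.17 within 500 bp. BMP5 (chromosome 6) rose from -0.95 and -0.76 to 0.01 and -0.06, by 0.83 (SE 0.14, adjusted p = 0.0016 by limma), with no measured probe in its window. With the median of the probes BMP5 changed by 0.04 and was not called. BMP7 (chromosome 20), a ligand of kidney and bone, rose from -0.42 and -0.41 to 0.10 and 0.24, by 0.58 (SE 0.13, adjusted p = 0.00791 by limma). Over measured probes only BMP7 changed by 0.32, and within 500 bp of the start by 0.35, and neither was called. The conditions did not overlap at any of these 4 genes.

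BMP3 (chromosome 4), a BMP that opposes other BMPs in bone, had the highest stimulated level of the BMP ligands. Its log2 ratio was 0.76 and 0.60 at the basal level and 1.14 and 0.99 after stimulation. The groups did not overlap, but the change of 0.38 (SE 0.14) missed the threshold (adjusted p = 0.0549 by limma). BMP3 was called over measured probes only (0.90), over probes above background in at least 1 channel (0.90), after loess (0.53) and without centring (0.54). It was not called after normexp (0.39), with the median of the probes (0.58), with all annotated probes (0.16) or within 500 bp of the start (0.52). BMP2, BMP8A and BMP10 changed by 0.21, 0.12 and 0.04, with adjusted p of 0.291, 0.569 and 0.842 by limma. BMP7 held both the highest basal and the highest stimulated measured probe of all members. The probe 1570 bp downstream of its start had basal ratios of 3.99 and 4.43 and stimulated ratios of 0.59 and 2.90, which were far apart (adjusted p = 0.212 by limma, and called at -3.62 without stimulated replicate 2). The probe 124 bp downstream had ratios of 2.94 and 2.83 at the basal level and 4.45 and 4.22 after stimulation (change 1.45, adjusted p = 0.0114 by limma). It was no longer called without unstimulated replicate 1 (1.50), unstimulated replicate 2 (1.40) or stimulated replicate 1 (1.33).

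Among the GDF ligands, the ratio rose at 3 of 10 genes, against 20.3% of all genes, and fell at 3, against 27.5%, and the median change was -0.14. GDF2 (chromosome 10, also known as BMP9), a ligand made in the liver that acts on endothelium, showed the largest change of all members. Its log2 ratio was -2.16 and -2.98 at the basal level. After stimulation it was -0.16 and -0.28. The basal replicates were the lowest of any member and the stimulated ones near the array median, a change of 2.35 (SE 0.24, adjusted p = 0.000124 by limma). Of its 10 measured probes 3 rose. The mock IP level of the window, also a log2 value with the array median at 0, was 2.94 and 4.75 at the basal level and 1.90 and 1.80 after stimulation, while the SMAD3 IP level was 0.97 and 1.90, and 1.75 and 1.60. The rise of the GDF2 ratio thus came with a lower mock IP level, although the mock change of -2.00 did not pass its own test (adjusted p = 0.152 by limma).

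GDF7 (chromosome 2), a ligand of roof plate and tendon, and GDF6 (chromosome 8), a ligand of joints and eye, also rose. GDF7 had log2 ratios of -0.57 and -0.94 at the basal level and 0.27 and 0.00 after stimulation, a change of 0.89 (SE 0.17, adjusted p = 0.00343 by limma). GDF6 had 0.41 and -0.42 at the basal level and 0.96 and 0.77 after stimulation, which was the highest stimulated level of the GDF ligands (change 0.87, SE 0.25, adjusted p = 0.0213 by limma). The SMAD3 IP level of GDF6 was 2.65 and 4.20 at the basal level and 4.08 and 4.23 after stimulation, and its mock IP level was 2.05 and 4.50, and 3.12 and 3.38. At GDF7 the SMAD3 IP level was 2.49 and 3.49, and 3.66 and 3.73, and the mock IP level 2.87 and 4.31, and 3.38 and 3.64. The basal replicates of both signals lay far apart at both genes, so which signal moved more rested on unstimulated replicate 1. With all replicates the SMAD3 IP level changed by 0.73 and the mock IP level by -0.03 at GDF6, and by 0.70 and -0.08 at GDF7, but without that replicate they changed by -0.05 and -1.25 at GDF6 and by 0.20 and -0.80 at GDF7. GDF7 was not called without stimulated replicate 1 (0.76), and it turned to -0.40 when all its annotated probes were used. GDF6 was not called without unstimulated replicate 2 (0.45), stimulated replicate 1 (0.78) or stimulated replicate 2 (0.96), nor with all annotated probes (0.10) or those within 500 bp (0.68). The probe 1124 bp upstream of GDF6 rose from ratios of -1.87 and -2.01 to 3.58 and 2.99, and its SMAD3 IP signal from 657 and 816 to 6182 and 7823 intensity units (adjusted p = 0.0038 by limma). That call ended without either unstimulated replicate (5.30 and 5.15).

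GDF3 (chromosome 12), a ligand of pluripotent cells, fell from -0.15 and -0.36 to -0.89 and -1.20, by 0.79 (SE 0.16, adjusted p = 0.00421 by limma), without a measured probe in its window. It was not called within 500 bp (-0.57). GDF10 (chromosome 10), a relative of BMP3, fell from 0.05 and -0.09 to -0.45 and -0.74 (change -0.58, SE 0.15, adjusted p = 0.0146 by limma). GDF11 (chromosome 12), a ligand of axial patterning, fell from -0.33 and -0.40 to -0.79 and -0.87 (change -0.47, SE 0.13, adjusted p = 0.0206 by limma). Both calls depended on the probes used. Within 500 bp GDF10 changed by -0.44 and was not called, and GDF11 turned to 0.52. With a replicate left out, GDF10 changed by -0.72 to -0.43 and GDF11 by -0.51 to -0.43. GDF15, a stress-responsive ligand and the highest GDF at the basal level (0.10 and 0.22, with 0.32 and 0.08 after stimulation), changed by 0.04 (adjusted p = 0.847 by limma). Outside the window, the probe 950 bp downstream of GDF15 fell from 0.36 and 0.22 to -7.60 and -7.54 (adjusted p = 0.00203 by limma). Its mock IP signal went from 46 and 68 to 29522 and 32908 intensity units, and its SMAD3 IP signal from 88 and 116 to 252 and 283. GDF5, GDF8 and GDF9 changed by 0.02, -0.31 and -0.33, with adjusted p of 0.941, 0.0918 and 0.117 by limma.

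Among the 5 activin and inhibin subunits, the ratio rose at 4, against 20.3% of all genes, and the median change was 0.94 against -0.06 over all genes. INHBA, INHBB, INHBC and INHBE encode β subunits, which pair to activins, and INHA encodes the α subunit that turns them into inhibins. INHBB (chromosome 2) had the highest level of the subunits in both conditions, with log2 ratios of 0.00 and 0.27 at the basal level and 1.24 and 0.91 after stimulation. The conditions did not overlap, and the change was 0.94 (SE 0.17, adjusted p = 0.00227 by limma). With all annotated probes it was 0.16 and not called. INHBB was well covered, with 12 of 14 window probes measured. The probe 1714 bp upstream had ratios of -4.32 and -3.53 at the basal level and 4.18 and 4.06 after stimulation, a change of 8.05 (adjusted p = 0.00299 by limma). At this probe the mock IP signal went from 15757 and 27500 to 271 and 246 intensity units and the SMAD3 IP signal from 930 and 3339 to 6513 and 6332, so that the 2 signals moved in opposite directions. This call held under every alternative that was run for single probes.

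INHBE (chromosome 12), a subunit made mainly in the liver, had log2 ratios of -2.00 and -2.14 at the basal level and -0.90 and -1.13 after stimulation. It was below the array median in both conditions and rose by 1.05 (SE 0.15, adjusted p = 0.000624 by limma), and with all annotated probes the change was 0.23 and not called. INHBA (chromosome 7) had ratios of -1.24 and -0.87 at the basal level and 0.02 and -0.05 after stimulation, a change of 1.04 (SE 0.16, adjusted p = 0.00106 by limma). INHBC (chromosome 12) had ratios of -0.66 and -0.70 at the basal level and 0.08 and -0.19 after stimulation, a change of 0.62 (SE 0.15, adjusted p = 0.00891 by limma). INHBC was not called without stimulated replicate 1 (0.49) or with all annotated probes (0.11). The conditions did not overlap at the 4 β subunits. The mock IP level changed by -2.20 at INHBE, -1.27 at INHBA, -0.57 at INHBC and -0.54 at INHBB. The SMAD3 IP level changed by -1.07 at INHBE, -0.34 at INHBA, 0.12 at INHBC and 0.28 at INHBB. Without unstimulated replicate 2 the mock IP and SMAD3 IP changes were 0.16 and 1.09 at INHBB, and -0.88 and 0.20 at INHBA. With the median of the probes the ratio of INHBA changed by 0.02 and was not called. INHA had ratios of -0.83 and -1.09 at the basal level and -1.02 and -1.46 after stimulation, which overlapped (change -0.28, adjusted p = 0.248 by limma).

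LEFTY2 (chromosome 1), a secreted inhibitor of nodal, fell from log2 ratios of -1.07 and -0.92 to -2.12 and -2.18. The conditions were apart by far more than the replicates, a change of -1.15 (SE 0.14, adjusted p = 0.000254 by limma). Of the 21 measured LEFTY2 probes 7 fell. The probe 2285 bp upstream had ratios of -0.49 and -1.88 at the basal level and -8.92 and -9.47 after stimulation, with a mock IP signal of 171 and 294, and 38387 and 39806, intensity units. Its SMAD3 IP signal was 143 and 112, and 105 and 87, and its call (adjusted p = 0.00718 by limma) ended without stimulated replicate 1 (-8.28) or replicate 2 (-7.74). LEFTY1, AMH, the Müllerian inhibiting hormone, and NODAL changed by 0.05, 0.05 and 0.09 (adjusted p of 0.873, 0.793 and 0.688 by limma). NODAL was the highest of the 4 in both conditions, although at -0.58 ± 0.25 and -0.50 ± 0.06 (SD, n = 2) it stayed below the array median.

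**Figure D2:**
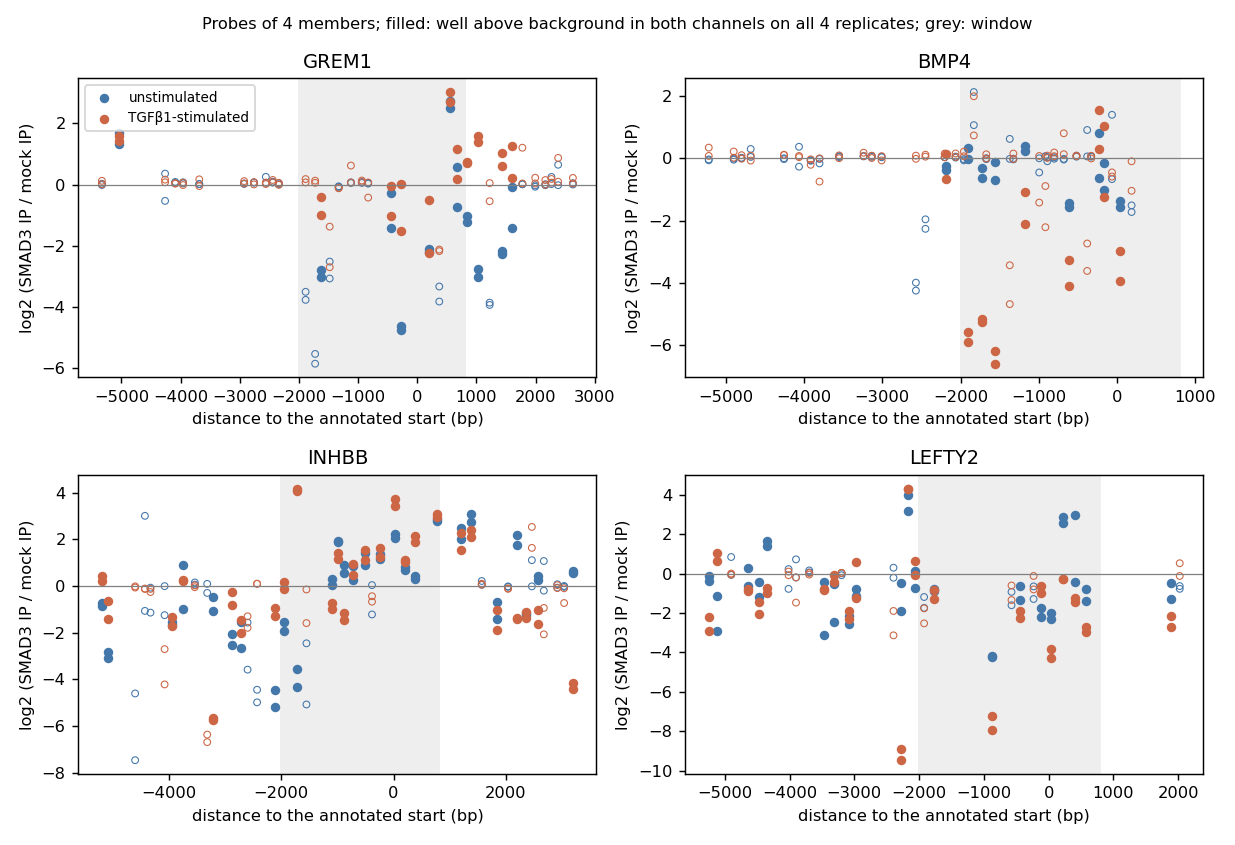
Log2 SMAD3 IP/mock IP ratio (y axis) of the probes of GREM1, BMP4, INHBB and LEFTY2 by distance to the annotated start (x axis, bp), with 1 point per probe and replicate, filled for measured probes, and the promoter window in grey. The widest gaps between conditions include the BMP4 probe 1556 bp upstream, the INHBB probe 1714 bp upstream and the LEFTY2 probe 2285 bp upstream, and INHBB holds measured probes that rose (8) and that fell (6).

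Among the antagonists, the ratio rose at 2 of 7 genes, against 20.3% of all genes, and fell at 2, against 27.5%. GREM1 (chromosome 15), which encodes gremlin, a BMP antagonist raised in fibrotic lung, had log2 ratios of -1.68 and -1.69 at the basal level. After stimulation they were -0.32 and -0.20. Replicates lay close together and conditions apart, and GREM1 rose by 1.43 (SE 0.13, adjusted p = 7.18e-05 by limma), although with all its annotated probes the change was 0.09 and not called. Its mock IP level went from 3.05 and 3.11 to 1.09 and 1.11, a change of -1.98 (adjusted p = 0.0109 by limma), and its SMAD3 IP level from 1.93 and 2.11 to 1.35 and 1.73. Both signals were thus lower after stimulation, the mock IP more so. Far outside the window, the probe 13634 bp downstream of the GREM1 start went the other way, from ratios of 2.60 and 1.40 to -6.34 and -5.52 (adjusted p = 0.00706 by limma). That call ended without unstimulated replicate 1 (-7.33) or stimulated replicate 1 (-7.52).

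NOG (chromosome 17), which encodes noggin, had the highest basal level of the antagonists. Its log2 ratio was 0.42 and 0.28 at the basal level and -0.91 and -0.51 after stimulation. The replicates lay on opposite sides of the array median, and the change was -1.06 (SE 0.17, adjusted p = 0.00126 by limma). The probe 990 bp downstream, outside the window, had ratios of 3.30 and 3.38 at the basal level and -3.74 and -3.22 after stimulation (adjusted p = 0.00243 by limma). Its SMAD3 IP signal was 1661 and 1568, and 1321 and 2211, intensity units, whereas its mock IP signal went from 113 and 102 to 10649 and 12811. FSTL1 (chromosome 3), a follistatin-like protein with a role in lung development, fell from ratios of -0.66 and -1.02 to -1.36 and -1.39 (change -0.54, SE 0.16, adjusted p = 0.0237 by limma). It was not called without unstimulated replicate 1 (-0.36), stimulated replicate 1 (-0.56) or stimulated replicate 2 (-0.52), nor with the ratios left uncentred (-0.38) or all annotated probes (-0.26). CER1 (chromosome 9), an antagonist of nodal and BMPs, rose from -0.64 and -0.52 to -0.06 and -0.12 (change 0.49, SE 0.13, adjusted p = 0.0177 by limma). It was not called without unstimulated replicate 1 (0.43), stimulated replicate 1 (0.45) or stimulated replicate 2 (0.52), nor within 500 bp (0.50) or with all annotated probes (0.22). FSTL3, CHRD (chordin) and FST (follistatin) changed by 0.26, 0.18 and -0.36 (adjusted p of 0.184, 0.308 and 0.056 by limma). FSTL3 was the highest antagonist after stimulation, at 0.10 ± 0.20 (SD, n = 2), and within 500 bp of its start it was called, at 0.89.

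The mock IP is the background of every ratio, so its own change was set beside each result. By limma, the mock IP level changed at 5 members, compared with 13.9% of all genes. It fell at 4 of them, compared with 7.54% of all genes, and rose at 1, compared with 6.37%. It fell at INHBE by 2.20 (adjusted p = 0.0112), GREM1 by 1.98 (adjusted p = 0.0109), BMP2 by 1.28 (adjusted p = 0.0319) and BMP7 by 0.96 (adjusted p = 0.0438), and it rose at BMP4 by 1.40 (adjusted p = 0.0234). With a replicate left out these mock changes kept their direction and most of their size. They ran from -2.33 to -2.06 at INHBE, -2.01 to -1.95 at GREM1 and -1.38 to -1.18 at BMP2. At BMP7 they ran from -0.98 to -0.95 and at BMP4 from 1.30 to 1.49. All 5 calls ended without either stimulated replicate, as did the calls of all other genes. More members, and a larger share of all genes, were called without either unstimulated replicate. Such a fit leaves 1 replicate in a condition, so its calls say little about single members. At 17 of the 21 changed members the mock IP level moved more than the SMAD3 IP level, compared with 70.1% of all changed genes. The count was 15 to 17 when a replicate was left out, which was tried after the data were seen. BMP15 and GDF11 were among the remaining members in each of these settings, whereas GDF6 and GDF7 were not without unstimulated replicate 1. LEFTY2, GDF10 and FSTL1 joined the remaining members without unstimulated replicate 1, and INHBB and CER1 did so without unstimulated replicate 2. The part of the mock IP in the changes was not tested.

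**Figure D3:**
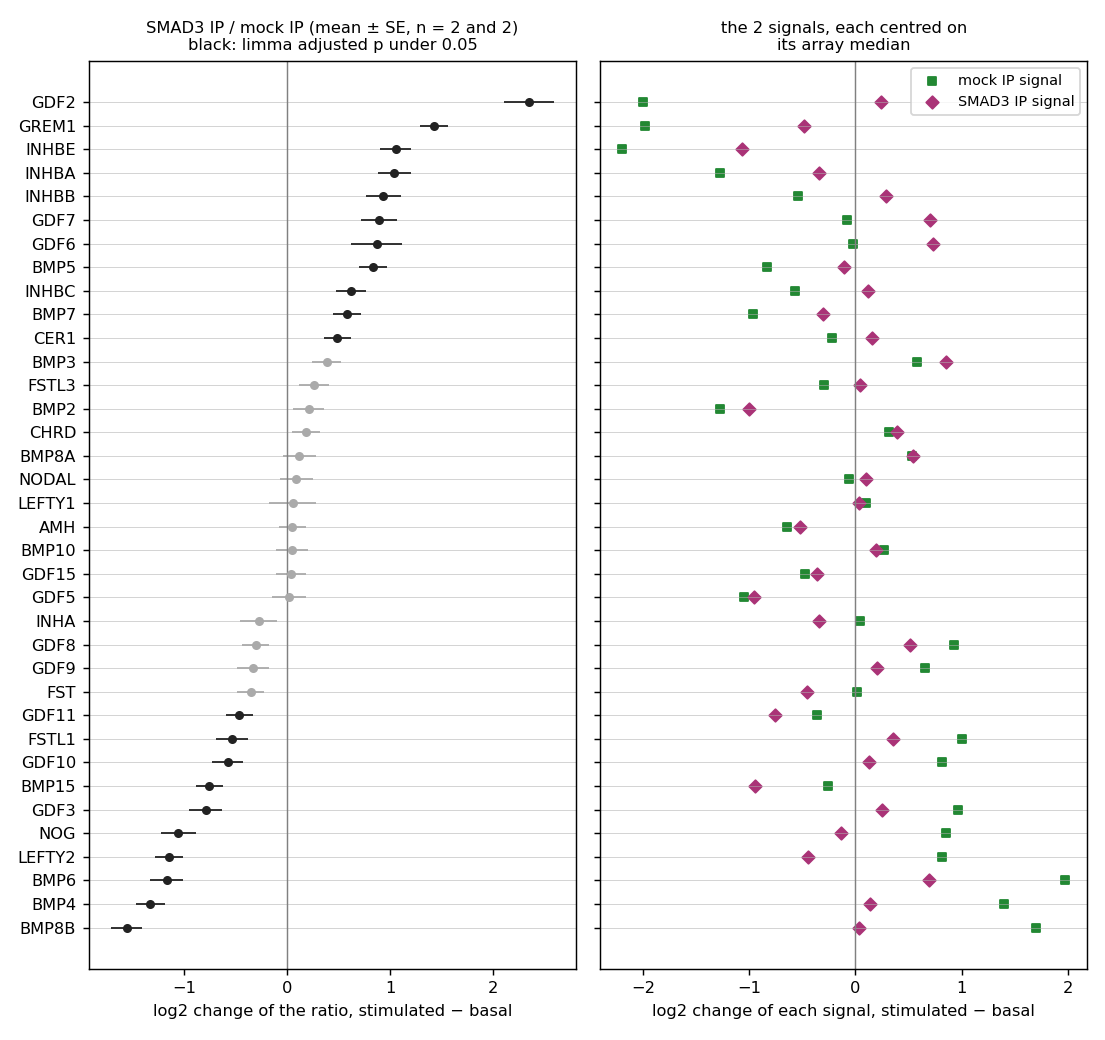
Change from the basal to the stimulated condition for the 36 members (y axis, ordered by change), on the left of the log2 ratio with its SE (n = 2 replicates per condition, black where it passed the test) and on the right of the mock IP and SMAD3 IP levels, both in log2 units. At BMP4, BMP6 and BMP8B the mock IP points lie far to the right of the SMAD3 IP points, and at GDF2, GREM1 and INHBE far to the left.

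At the level of single probes, 280 of 1166 member probes changed by limma, compared with 22.9% of all probes. The ratio rose at 140 and fell at 140 of them, compared with 10.5% and 12.4% of all probes. Among the 421 measured member probes 185 changed, compared with 44.4% of all measured probes. Of these, 84 rose and 101 fell, compared with 19.0% and 25.5% of all measured probes. At 116 of these 185 probes the mock IP signal moved more than the SMAD3 IP signal, compared with 58.0% of all changed measured probes. All LEFTY2, BMP4 and FSTL1 measured probes that changed fell (7, 4 and 5 probes), whereas INHBB had 8 that rose and 6 that fell, and GDF7 4 and 8. Members thus held probes of both directions within one annotated gene. Besides the probes described above, the measured probe of largest change was, for INHBC 4326 bp upstream (-7.54, not called without unstimulated replicate 1, -7.44, or replicate 2, -7.64), for GDF11 969 bp downstream (-6.48, not called without unstimulated replicate 1, -6.86, or replicate 2, -6.10), for FSTL3 9245 bp upstream (6.03), for GDF7 196 bp upstream (5.82) and for INHBE 379 bp downstream (5.60). For GDF2 it lay 5109 bp upstream (5.09), for FSTL1 223 bp downstream (-4.51), for BMP6 282 bp upstream (-4.43) and for GDF10 694 bp downstream (-3.95). The GDF2 call ended when any replicate was left out (5.90 without unstimulated replicate 2, 5.47 without stimulated replicate 2, 4.71 without stimulated replicate 1 and 4.28 without unstimulated replicate 1), and the GDF10 call without stimulated replicate 1 (-4.07) or 2 (-3.84). Changes were smaller at the BMP3 probe 500 bp downstream (3.74, not called without unstimulated replicate 1, 3.68, or 2, 3.80), the NODAL probe 2231 bp downstream (3.56, not called without unstimulated replicate 2, 3.30, or stimulated replicate 1, 3.38) and the BMP7 probe 1246 bp upstream (2.82, not called without stimulated replicate 1, 2.75, or 2, 2.88). The INHBA probe 2721 bp downstream changed by -2.71 and was not called without unstimulated replicate 1 (-2.56), unstimulated replicate 2 (-2.87) or stimulated replicate 2 (-2.28). The BMP5 probe 945 bp downstream changed by 2.45, a call that ended when any replicate was left out (2.12 without unstimulated replicate 1, 2.78 without unstimulated replicate 2, 2.65 without stimulated replicate 1 and 2.25 without stimulated replicate 2), and the BMP15 probe 5348 bp upstream by 2.29. The CER1 probe 2921 bp upstream changed by 1.09 and did not pass the test (adjusted p = 0.454 by limma). After normexp, the calls at the named probes of BMP5, BMP8B, GDF6, GDF10, GREM1, INHBA, INHBB, INHBC and LEFTY2 were kept, and those at the other members' named probes were not.

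**Figure D4:**
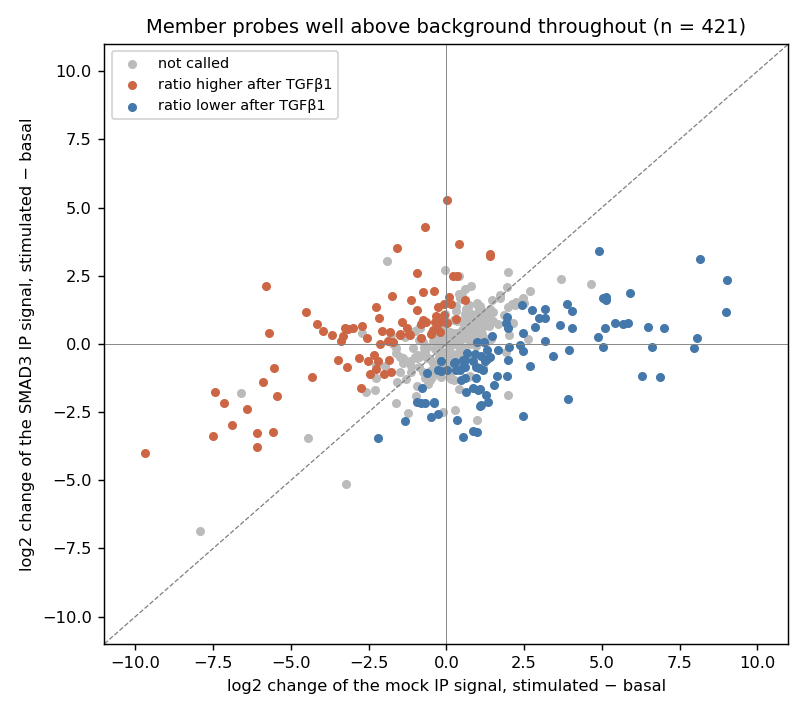
Change of the SMAD3 IP signal (y axis) against change of the mock IP signal (x axis), both log2 and stimulated minus basal, for the 421 measured member probes, with the line of equal change dashed. The 84 probes whose ratio rose lie above the line and the 101 whose ratio fell below it, spread more widely along the mock axis.

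Measured probes were not spread evenly over the promoters. Within 250 bp of the annotated start 61.9% of 97 member probes were measured, compared with 38.9% of 252 probes more than 250 and up to 2000 bp upstream and 19.7% of 370 probes farther upstream. Downstream, 59.6% of 94 probes up to 800 bp and 38.0% of 353 probes farther away were measured. The median log2 ratio of the measured probes within 250 bp was -0.01 at the basal level and 0.52 after stimulation. More than 250 and up to 2000 bp upstream it was -0.73 and -0.91, and farther upstream -0.82 and -1.08. Downstream it was -0.09 and -0.46 up to 800 bp, and -0.45 and -0.55 farther away. Of the 60 measured probes within 250 bp, 14 rose and 11 fell, compared with 19.0% and 25.5% of all measured probes. These medians pool probes of many genes and were not tested. Shares and medians by distance were not worked out for all probes, so they may hold for promoters in general.

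The level itself was compared with the array median in each condition. At the basal level 25 members differed from it by limma, compared with 58.8% of all genes. There were 6 above it, compared with 20.7% of all genes, and 19 below it, compared with 38.1%. After stimulation 24 differed from it, compared with 59.0% of all genes, with 4 above it, compared with 16.5% of all genes, and 20 below it, compared with 42.5%. The members above it at the basal level were BMP15, BMP3, BMP6, BMP8A, BMP8B and NOG, and those above it after stimulation were BMP3, BMP8A, GDF6 and INHBB. These directions depended on the scaling. After loess within each array 10 members were above and 12 below at the basal level and 11 and 12 after stimulation, and without centring 16 and 11, and 16 and 8. The median over all genes was -0.12 and -0.18 as reported and 0.32 and 0.42 without centring.

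Of 42 other genes of these pathways the ratio rose at 6 (14.3%) and fell at 12 (28.6%), against 20.3% and 27.5% of all genes, which are also the shares to read the following counts against. Among 15 receptors and coreceptors 2 rose and 5 fell, among 12 other antagonists 1 rose and 4 fell, and among 8 SMAD genes 2 rose and 2 fell. The largest falls were at SMAD6, an inhibitory SMAD of the BMP pathway (-1.71), BMPER, a BMP-binding protein (-1.16), SOST, which encodes sclerostin (-1.06), and TGFBR1, the type I TGFβ receptor (-1.02). TGFB1 rose by 0.80 and DAND5, a nodal antagonist, by 0.75. The 4 ID genes, targets of BMP signalling, had changes between -0.26 and 0.33. The values of these pathway genes are means of the ratio over the promoter window. Their mock IP and SMAD3 IP levels and the alternative settings were not examined, so a fall need not mean less SMAD3 IP signal.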

How the data were processed

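SMAD3 binding was measured by ChIP-on-chip in A549 cells, unstimulated or stimulated with TGFβ1, in 2 replicates per condition as the sample titles number them. Each deposited scanner file holds an intensity for every spot and channel, which Agilent Feature Extraction 9.5.1.1 (named in the submitters' processing notes) had background-subtracted, detrended and scaled linearly per dye, with surrogate values for dim signals. They also deposited log2 ratios in a series matrix, which equalled those of the processed intensities (largest difference 3.13e-06). Probe coordinates are not printed because the array annotation names no build.

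Control spots and 1404 outlier-marked probes were left out. The log2 ratio of Cy5 (SMAD3 IP) to Cy3 (mock IP) was centred on the array median, which lay between 0.237 and 0.725, both slides of a replicate were joined, and the probes lying up to 2000 bp upstream or 800 bp downstream were averaged for genes with at least 3 of them. Conditions were compared with limma 3.58.1 (lmFit, eBayes, Benjamini-Hochberg at 0.05 over all genes or probes) in R 4.3.3, without a block, and the script was tested on simulated data. The mock signal was tested alike. The SMAD3 IP channel alone was not tested. Tables and figures used Python 3.11.15, numpy 2.4.6, pandas 2.3.3 and matplotlib 3.10.9.

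All members with probes are named. Full values are given for members that changed and for the highest of each role in each condition, with the measured probe of largest change. The members and lists were chosen with earlier results of these data known. Alternatives comprised normexp (offset 50), loess within arrays, uncentred series matrix values, quantile normalization of the mock channel, filters on dim probes, all annotated probes, probes within 500 bp, the median of the probes, a variance trend, a replicate block, separate slides and leaving out each replicate. Leaving out replicates in the comparison of the mock and SMAD3 IP levels was added after the data were seen.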

Additional observations from a re-analysis of the deposited data

Results flagged for a closer look

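At 5 members that changed, both basal replicates lay on one side of the array median and both stimulated replicates on the other. The ratio went from above to below at BMP8B (log2 change -1.56), BMP6 (-1.17) and NOG (-1.06), and from below to above at GDF7 (0.892) and BMP7 (0.585). How many of all genes crossed the median in this way was not counted, and the conditions did not overlap at 74.8% of all genes. The stimulated levels of GDF7 and BMP7 did not differ from the array median (adjusted p = 0.374 and 0.165 by limma). The changes were tested with limma, and the median of an array is a reference that moves with its scaling.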

How the results depend on the processing

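Of the 36 members, 21 changed. The count was 3 after normexp (10.6% of all genes) and 5 with the median of the probes (11.0%). Fewer members, and a smaller share of all genes, were called when any replicate was left out. At the basal level 25 members were above or below the array median (1 after normexp, 5.63% of all genes, and 7 with the median, 15.6%). After stimulation 24 were (9 after normexp, 22.5% of all genes, and 8 with the median, 17.5%). Each count, and its share of all genes, was lower when a replicate of its own condition was left out. The 280 changed member probes became 51 after normexp and 117 to 164 with a replicate left out (128 without unstimulated replicate 1, 117 without unstimulated replicate 2, 164 without stimulated replicate 1 and 159 without stimulated replicate 2). The mock IP count of 5 members was 19 after quantile normalization, 12 with separate fits per slide, 2 over measured probes only, 2 with a replicate block and, by limma, 0 after normexp, where 2 members had an unadjusted p under 0.05. With a replicate left out it ran from 0 to 28. It was 18 without unstimulated replicate 1, 28 without unstimulated replicate 2 and 0 without stimulated replicate 1 or 2, where 5 and 7 members had an unadjusted p under 0.05. The other settings left these counts within 1.5 times, but not always with the same members. All annotated probes called 15 members, of which 11 were among the 21 with the same direction, and probes within 500 bp called 17, of which 12 were. Direction turned at GDF10 with the median (0.0366), at GDF11 with all annotated probes (0.25) or those within 500 bp (0.52), at GDF7 with all annotated probes (-0.40), at GDF15 with loess (-0.00998), probes above background in at least 1 channel (-0.105), all annotated probes (-0.216) and without unstimulated replicate 1 (-0.0216) or stimulated replicate 1 (-0.0793; -0.0793 to 0.161 over the replicates), and at NODAL with probes above background in at least 1 channel (-0.0840) or both (-0.366) and without unstimulated replicate 2 (-0.0914; -0.0914 to 0.269 over the replicates). With all annotated probes NODAL was called at 0.68. Of 51 gene and probe values, normexp left 18 on their side of the threshold and 33 no longer passed it. The median change over all genes was 0.08 without centring against -0.06. The replicate numbers are shared between conditions, but the differences of replicate 1 and 2 correlated across genes by only 0.109 (mock 0.122), so the numbers were not taken as pairs. With the replicate block 22 members and 233 member probes changed, BMP3 (0.38) was called and the GDF2 probe 5109 bp upstream (5.09) was not. The causes were not tested. Signal over background and 2 replicates per condition limit all values.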
